A study of Mus musculus with 6 samples.

Results

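The miRNAs described here are cut from hairpins on the strand opposite the imprinted gene Rtl1. They were found by name in the deposited read tables as miR-431, miR-431*, miR-433, miR-127, miR-127*, miR-434-5p, miR-434-3p, miR-136 and miR-136*, which are 9 of the 1055 mature miRNAs listed. The brains of 3 wild-type and 3 Adar2-/- mice, sisters of the 129SV strain killed at 5.5 months, were each sequenced whole for small RNAs of 19 to 25 nucleotides. Both groups were homozygous for the pre-edited Gria2 allele (Gria2 R/R), without which Adar2-/- mice die early, so the wild-type mice here are wild-type for Adar2 only. Adar2-/- is a germline knockout, and a whole brain mixes all its cell types. In such a sample fewer cells of a type and less RNA per cell cannot be told apart. The comparison asks whether the level of these miRNAs, or the balance between the arms of their hairpins, differed in brains that lack ADAR2, an enzyme that converts adenosine to inosine in double-stranded RNA, miRNA precursors among them.

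Rtl1, a gene derived from a retrotransposon and needed in the placenta, is expressed from the paternal chromosome of the Dlk1-Dio3 imprinted domain. The maternal chromosome is read on the opposite strand into a long RNA that contains the hairpins described here. Since each mature miRNA is copied from the strand opposite the Rtl1 coding sequence, it pairs with Rtl1 mRNA without a mismatch and can direct its cleavage. Further imprinted miRNAs lie on both sides, around Meg3 and in the large cluster from miR-379 to miR-410.

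On the NCBIM37 assembly the Rtl1 coding sequence occupies chr12:110828382-110833613 on the minus strand, 5232 bases in 1 exon. All 5 hairpins lie inside it on the plus strand. They are Mir431 (chr12:110828657-110828747), Mir433 (chr12:110829925-110830048), Mir127 (chr12:110831042-110831138), Mir434 (chr12:110832716-110832809) and Mir136 (chr12:110833527-110833608). Mir432 (chr12:110833166-110833240) lies between Mir434 and Mir136. From the first base of Mir431 to the last base of Mir136 the cluster spans 4952 bases. miR-432, with 3 to 12 reads per library, and miR-433*, with 55 to 210, were not among the miRNAs chosen. Mir3071 overlaps Mir136 on the opposite strand, and miR-3071 and miR-3071* had at most 1 and 3 reads in any library.

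**Figure D1:**
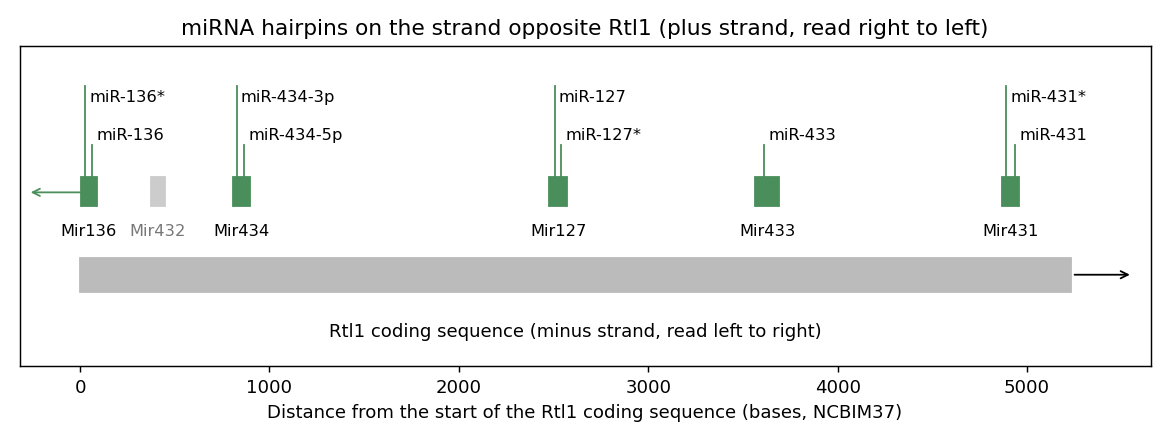
Map of the 5 hairpins (green) and of Mir432 (light grey) against the Rtl1 coding sequence (dark grey), with the distance in bases from the first coding base on the horizontal axis and a line at the middle of each mature miRNA. miR-136* lies nearest the start of the coding sequence, at coding bases 17 to 38, and miR-431 farthest from it, at coding bases 4925 to 4945.

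The mature sequences of all 9 were matched by arm in RefSeq's miRNA table (GRCm38.p6), and each was found without a mismatch in its hairpin on NCBIM37. They are shown because the seed decides which other mRNAs a miRNA can pair with. Each is written 5′ to 3′ with bases 2 to 8, the seed, in capitals.
miR-431: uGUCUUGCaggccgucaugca
miR-431*: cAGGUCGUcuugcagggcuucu
miR-433: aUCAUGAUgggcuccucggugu
miR-127: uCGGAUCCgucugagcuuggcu
miR-127*: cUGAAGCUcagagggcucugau
miR-434-5p: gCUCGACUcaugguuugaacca
miR-434-3p: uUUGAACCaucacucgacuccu
miR-136: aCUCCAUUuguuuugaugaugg
miR-136*: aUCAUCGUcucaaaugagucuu

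The 9 seeds differed from each other, and 0 of the other mature miRNAs in the table, which lists 1679, had any of them. The mature miRNAs are 21 or 22 bases long and range in GC content from 36.4% in miR-136 and miR-136* to 59.1% in miR-127 and miR-431*. Their nearest other mature miRNA in the table stood at an edit distance of 5 (miR-136) to 7 (miR-434-3p and miR-136*), more than the 2 mismatches that the mapping allowed. The tables give no sequence, so the arm behind each older name was taken from miRBase's later renaming, in which miR-127 and miR-433 are 3p arms and miR-431 and miR-136 are 5p arms.

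The arms of a hairpin also share sequence in 2 of the hairpins, and the shared run is in capitals in the lines that follow. Arms of Mir431 have 10 bases in common and arms of Mir434 have 9.
miR-431: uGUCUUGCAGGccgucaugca
miR-431*: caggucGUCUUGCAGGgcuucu
miR-434-5p: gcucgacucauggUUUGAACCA
miR-434-3p: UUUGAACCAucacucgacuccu
The whole seed of miR-431 therefore recurs inside miR-431*, and the whole seed of miR-434-3p recurs inside miR-434-5p. In miR-434-5p it lies outside that arm's own seed, whereas in miR-431* the shared run begins at base 7, within the seed of that arm. The remaining pairs among the 9 share at most 7 bases in a row.

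The Rtl1 sites of the most read miRNA and of the 5p arm nearest the start codon are given as the coding strand reads them, with the bases that pair with the seed in capitals.
Rtl1 coding bases 2495 to 2516, site of miR-127: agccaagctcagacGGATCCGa
Rtl1 coding bases 52 to 73, site of miR-136: ccatcatcaaaacaAATGGAGt

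Levels are given as RPM, the reads of a miRNA in every 1000000 that a library had on miRNAs. RPM ranks miRNAs by reads, and whether different miRNAs were captured equally well was not tested. The totals were 12449633 to 23471819 reads in wild-type and 18645810 to 23935544 in Adar2-/- libraries, with the lowest in wild-type replicate 1. Neuronal markers fixed for this tissue (miR-124, miR-9, miR-128, miR-138, miR-218 and miR-132, all 6 with at least 100 reads in every library) summed to 158388 to 188288 RPM in wild-type and 151403 to 168354 in Adar2-/-. miR-9 alone had a mean of 116040 RPM, so it weighs most in this sum. In the edgeR test described below, the log2 fold changes were 0.80 for miR-128, 0.56 for miR-124 and 0.20 for miR-218. They were 0.05 for miR-138, −0.24 for miR-132 and −0.25 for miR-9, and none of the 6 had an adjusted p under 0.05. The sums for other cells varied more. The pituitary list (miR-375, miR-7a and miR-7b) summed to 7459 RPM in wild-type replicate 1 and to 1289 to 4714 in the other 5 libraries. Its markers did not share a direction, with log2 fold changes of −4.09 for miR-375, 0.42 for miR-7a and 0.19 for miR-7b. The pineal and sensory list (miR-182, miR-183 and miR-96) summed to 19158 RPM in Adar2-/- replicate 3 and 89664 to 186903 in the others. The list for endothelium and vascular smooth muscle (4 miRNAs) ran from 50321 to 80298 RPM over the 6 libraries, and that for blood (6) from 1784 to 3944. That for oligodendrocytes ran from 284 to 708, with 2 of 3 names found, since miR-219 and miR-219-5p name the same miRNA. That for the choroid plexus (3) ran from 838 to 1624 and the epithelial and olfactory list (5) from 738 to 9210. None of these markers was at 0 in any library. Adar2 mRNA was not analysed here, so the genotypes were not checked in this report. The paper reported significantly fewer A to G mismatches in the Adar2-/- miRNA reads and lower Adar2 mRNA on its arrays.

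Together the 9 miRNAs took 4.10%, 10.1% and 6.60% of a library's miRNA reads in the 3 wild-type brains, in order of replicate number, and 6.06%, 7.10% and 7.37% in the 3 Adar2-/- brains. The wild-type libraries enclosed the Adar2-/- libraries on both sides. The wild-type mean was 6.92% ± 3.00 (SD, n = 3) and the Adar2-/- mean 6.84% ± 0.694 (SD, n = 3) (two-sided exact permutation test, p = 1.0, smallest possible 0.1). The 95% Wilson intervals of these shares had half-widths of no more than 0.0124 percentage points. These intervals take each read as an independent molecule, which reads amplified by PCR are not, and they leave out the variation between mice.

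miR-127 alone made up 78.0%, 91.5% and 86.6% of the reads of the 9 in wild-type replicates 1 to 3, against 89.8%, 88.4% and 87.5% for Adar2-/-. Without it, the other 8 summed to 9022, 8598 and 8833 RPM in wild-type and to 6195, 8248 and 9208 RPM in Adar2-/- replicates 1 to 3. On this sum the wild-type libraries lay close together and Adar2-/- replicate 1 was lowest. Its largest parts ran in opposite directions in wild-type replicates 1 and 2, with 4401 and 2232 RPM for miR-136 and 1628 and 4124 RPM for miR-434-3p. The means of the sum were 8818 ± 212 and 7884 ± 1539 RPM (SD, n = 3 each, two-sided exact permutation test, p = 0.5).

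The levels of the 9 spanned a 5361-fold range of means over the 6 libraries, from 60477 RPM for miR-127 to 11.3 RPM for miR-431. In decreasing order the means were miR-127, miR-136 (3038 RPM), miR-434-3p (2665), miR-434-5p (990), miR-136* (856), miR-127* (464), miR-431* (167), miR-433 (159) and miR-431. Neighbours in this order kept it in every library except in 2 places. miR-136 stood above miR-434-3p in 3 of 6 libraries, with a mean log2 ratio of 0.23 ± 0.79 (SD, n = 6), and miR-431* above miR-433 in 4 of 6, with a mean log2 ratio of 0.02 ± 0.42 (SD, n = 6). These pairs did not differ beyond their spread. miR-434-5p exceeded miR-136* in 6 of 6 libraries by a narrow and steady margin, a log2 ratio of 0.22 ± 0.09 (SD, n = 6).

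Among all miRNAs miR-127 ranked between 3 and 6 in each library, and by its mean it held rank 3, below miR-9 (116040 RPM) and above miR-182 (56300 RPM). miR-431, at the other end, ranked between 327 and 430. By its mean it stood next to miR-3093-3p and miR-485*, the latter from the imprinted cluster downstream.

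**Figure D2:**
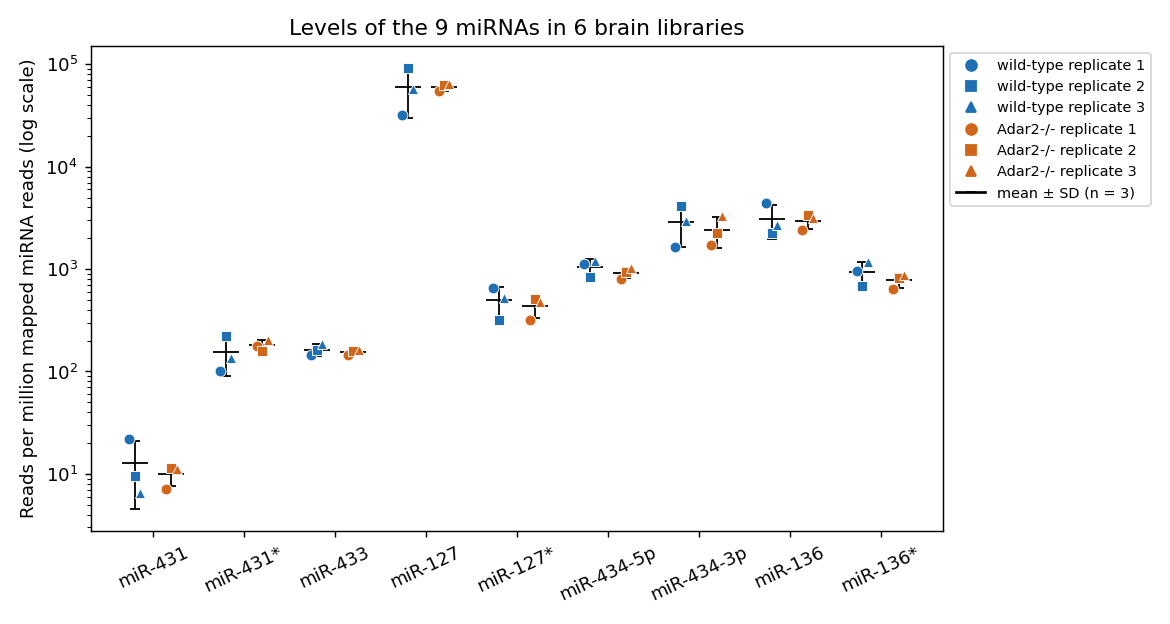
RPM on a logarithmic axis for the 9 miRNAs in hairpin order, with a marker shape for each replicate number, blue for wild-type and orange for Adar2-/-, and black bars for the mean and SD of 3 libraries. The genotypes overlap for every miRNA, and the wild-type spread of miR-127 reaches from 31945 to 92128 RPM.

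Mir127 gives the most read miRNA of the locus. miR-127 had 31945, 92128 and 57148 RPM in wild-type replicates 1 to 3, against 54377, 62765 and 64501 RPM for Adar2-/-. Wild-type replicate 1 was the lowest of the 6 libraries and wild-type replicate 2 the highest. The means were 60407 ± 30224 and 60547 ± 5414 RPM (SD, n = 3 each). On the log2 scale the fitted change was 0.0033, with a standard error of 0.397 and an adjusted p of 0.999 in edgeR's quasi-likelihood test.

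The other arm ran the opposite way across the wild-type mice. miR-127* had 649, 316 and 517 RPM in wild-type and 318, 509 and 476 RPM in Adar2-/- replicates 1 to 3. Its highest library was wild-type replicate 1 and its lowest wild-type replicate 2, the reverse of miR-127. The log2 fold change was −0.19 (standard error 0.369).

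At Mir434 the arms were closer in level. miR-434-3p had 1628, 4124 and 2933 RPM in wild-type and 1714, 2274 and 3317 RPM in Adar2-/- replicates 1 to 3, again with its lowest value in wild-type replicate 1 and its highest in wild-type replicate 2. miR-434-5p had 1112, 846 and 1213 RPM in wild-type and 802, 944 and 1024 RPM in Adar2-/- replicates 1 to 3. It varied by 1.51-fold over the 6 libraries, against 2.53-fold for the 3p arm.

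miR-136 and miR-136* come from the hairpin nearest the Rtl1 start codon. miR-136 had 4401, 2232 and 2680 RPM in wild-type and 2392, 3385 and 3140 RPM in Adar2-/- replicates 1 to 3, so that wild-type replicate 1 was highest and wild-type replicate 2 lowest. miR-136* had 964, 688 and 1162 RPM in wild-type and 640, 809 and 873 RPM in Adar2-/-. Its extremes were wild-type replicate 3 and Adar2-/- replicate 1.

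The Mir431 hairpin, farthest from the start codon, gave the rarest member. miR-431 had 21.8, 9.53 and 6.56 RPM in wild-type and 7.19, 11.5 and 11.1 RPM in Adar2-/- replicates 1 to 3, from 134 to 272 reads, and wild-type replicate 1 stood above the other 5 libraries. miR-431* had 102, 222 and 135 RPM in wild-type and 178, 159 and 204 RPM in Adar2-/- replicates 1 to 3. The arm named with a star therefore held more reads than the other arm in each library, from 4.67 times as many in wild-type replicate 1 to 24.8 times in Adar2-/- replicate 1.

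miR-433, a 3p arm whose star arm was not among those chosen, was the steadiest. It had 145, 160 and 186 RPM in wild-type and 144, 157 and 164 RPM in Adar2-/- replicates 1 to 3. The highest library exceeded the lowest by 1.29-fold, and 1.75% of the 399 miRNAs that reached 100 reads in all 6 libraries had a smaller SD of log2 RPM over the 6 libraries.

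Adar2-/- and wild-type levels were compared with edgeR's quasi-likelihood test on the counts of those 399 miRNAs, to which all 9 belonged, with total mapped miRNA reads as library size and Benjamini-Hochberg adjustment over the 399 at a threshold of 0.05. None of the 9 passed, and 0 had an unadjusted p under 0.05. Over all miRNAs tested, 0 (0.00%) passed and 13 (3.26%) had an unadjusted p under 0.05. In DESeq2 0 of the 9 passed and 0 had an unadjusted p under 0.05, while over all tested 1 passed and 40 had one.

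The log2 fold changes of the 9 ran from −0.34 for miR-431 to 0.23 for miR-431*, both from Mir431. Between these extremes lay miR-136* at −0.28, miR-434-3p at −0.25, miR-434-5p at −0.19, miR-433 at −0.08 and miR-136 at −0.06. All 9 were within 1.3-fold, the size the study required of a change, as were 67.4% of the 399 tested. The 95% intervals were wide. For miR-431 the interval allowed 0.390 to 1.60 of the wild-type level, for miR-127 0.544 to 1.85, for miR-431* 0.683 to 2.02 and for miR-433, the narrowest, 0.610 to 1.47. A 1.5-fold change of any of the 9 in at least 1 direction is therefore not excluded by these libraries.

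Of the 9 fold changes 7 were below 0 and 2 above, with a median of −0.19. Of all tested 49.6% were below 0 and 50.4% above, with a median of 0.0023. The arms of a hairpin share a precursor and are not separate replicates. With TMM factors or DESeq2's size factors 8 of the 9 were below 0, since miR-127 then changed sign. The median over all tested was then 0.0069 with TMM factors and −0.041 in DESeq2.

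**Figure D3:**
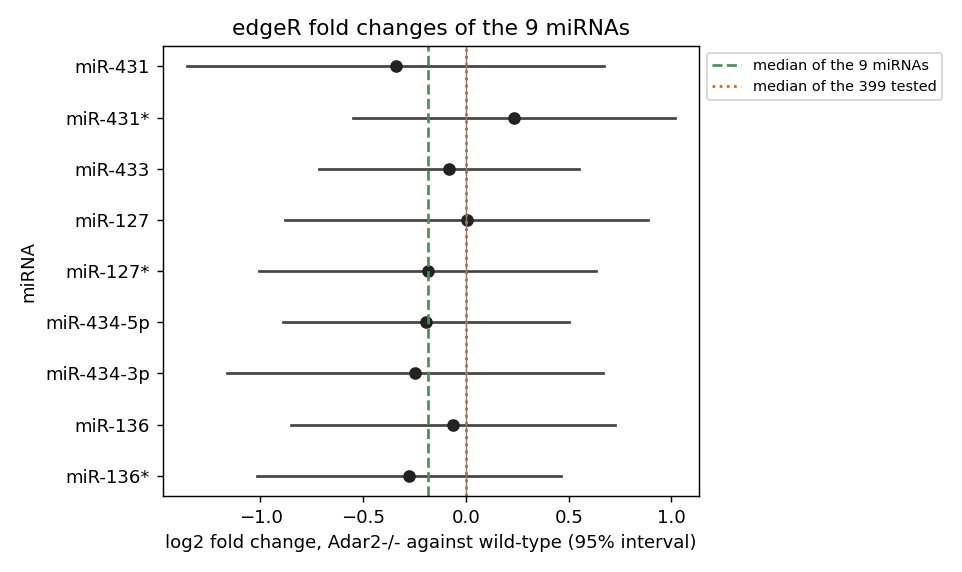
edgeR log2 fold changes of Adar2-/- against wild-type (points) with their 95% intervals (lines) for the 9 miRNAs, the median of the 9 (dashed) and the median of the 399 miRNAs tested (dotted). Every interval includes 0, and the points lie between −0.34 and 0.23.

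Against the wild-type library that shared its number, only miR-433 moved in the same direction 3 times, with ratios of 0.997, 0.977 and 0.878. Over all miRNAs tested 16.0% did so, 7.02% lower and 9.02% higher in Adar2-/-. None of the 9 also reached 1.3-fold, against 9.77% of all tested. For 0 of the 9 did the genotypes separate in RPM, against 5.76% of all tested. The ratios of the other 8 changed direction between replicate numbers, as for miR-127 with 1.70, 0.681 and 1.13 and for miR-431 with 0.329, 1.21 and 1.69.

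Across the wild-type mice the highest level exceeded the lowest by 1.29-fold (miR-433) to 3.33-fold (miR-431), and across the Adar2-/- mice by 1.13-fold (miR-433) to 1.93-fold (miR-434-3p). For all 9 the range of log2 RPM was wider in wild-type, which held for 59.4% of all miRNAs tested. With the 5 most abundant miRNAs, miR-127 among them, left out of the totals it held for 8 of the 9 and for 60.4% of all tested. As 1 library can set a range of 3, and the arms of a hairpin are not independent, this describes the 6 brains and was not tested.

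Wild-type replicates 1 and 2 stood at opposite ends for miR-127, miR-434-3p, miR-431*, miR-127* and miR-136, but not for the other members. Within wild-type, miR-127, miR-434-3p and miR-431*, which are 3p arms, were lowest in replicate 1 and highest in replicate 2, whereas miR-127*, miR-431 and miR-136, which are 5p arms, were highest in replicate 1. The arms did not divide throughout, since the other 3 members, the 3p arms miR-433 and miR-136* and the 5p arm miR-434-5p, were all highest in wild-type replicate 3. These groups were seen in the values and not chosen beforehand. Among all miRNAs tested 17% were lowest in wild-type replicate 1 and highest in replicate 2 within wild-type, and 49.1% were highest in replicate 1. The 2 groups kept these positions with TMM factors and with the 5 most abundant left out of the totals. Wild-type replicate 1 was also the library with the fewest reads and the highest sum of pituitary markers (7459 RPM), and the part of either in this pattern was not tested. The single pituitary markers did not share a direction between genotypes.

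Among the Adar2-/- mice replicate 1 was lowest for 8 of the 9, all but miR-431*. This depended on the scaling, since it held for 5 of the 9 with TMM factors and for 3 with the 5 most abundant left out of the totals. Of all tested, 68.9%, 51.4% and 40.1% were lowest in that library under the same scalings.

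**Figure D4:**
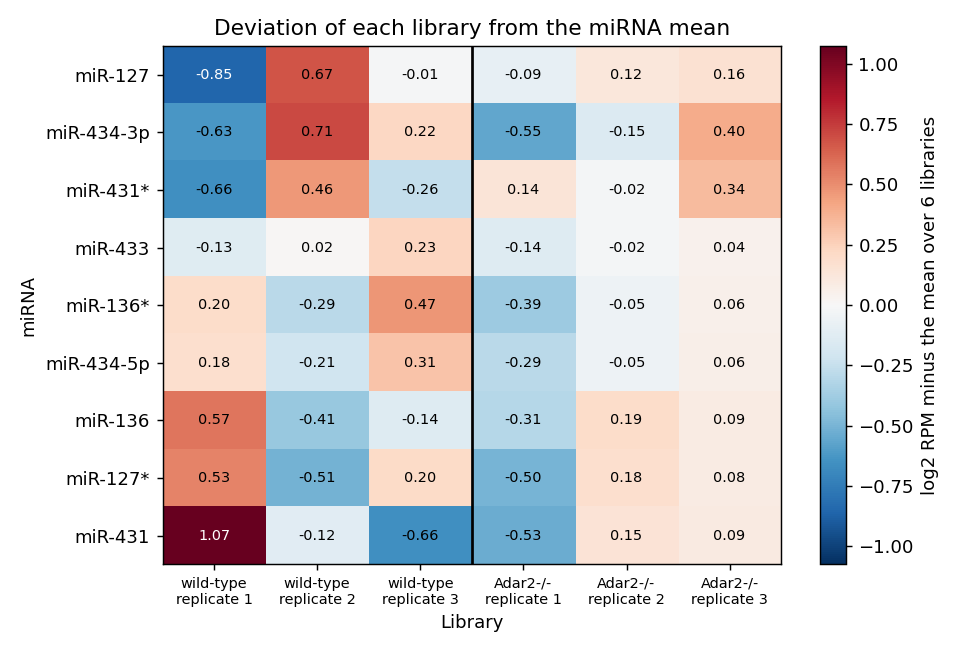
Deviation of log2 RPM from the mean over the 6 libraries for each of the 9 miRNAs (rows) in each library (columns), with blue below and red above the mean. In wild-type replicate 1 the deviations run from −0.85 for miR-127 to 1.07 for miR-431, and in Adar2-/- replicates 2 and 3 none is below −0.15 or above 0.40.

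The ratio of the arms does not depend on the scaling to total reads. At Mir127 there were 49.2, 292 and 111 reads of miR-127 for each read of miR-127* in wild-type replicates 1 to 3, against 171, 123 and 136 for Adar2-/-. The log2 ratio had a wild-type mean of 6.87 ± 1.28 (SD, n = 3) and an Adar2-/- mean of 7.15 ± 0.24 (SD, n = 3), a difference of 0.28 (two-sided exact permutation test, p = 0.7). The wild-type libraries spread 5.92-fold and the Adar2-/- libraries 1.39-fold.

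At Mir431 the log2 ratio of miR-431* to miR-431 was 2.22, 4.55 and 4.37 in wild-type and 4.63, 3.79 and 4.20 in Adar2-/- replicates 1 to 3. Wild-type replicate 1 stood apart below the other 5 libraries. The difference between the means was 0.50 (two-sided exact permutation test, p = 0.8), and it was −0.25 without wild-type replicate 1.

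At Mir434 the log2 ratio of miR-434-3p to miR-434-5p was 0.55, 2.29 and 1.27 in wild-type and 1.10, 1.27 and 1.70 in Adar2-/- replicates 1 to 3, with a difference of −0.02 between the means (p = 0.9 in the same exact test). At Mir136 the log2 ratio of miR-136 to miR-136* was 2.19, 1.70 and 1.21 in wild-type and 1.90, 2.06 and 1.85 in Adar2-/- replicates 1 to 3, with a difference of 0.24 (p = 0.5 in the same exact test). The more read arm was the same in all 6 libraries for each of the 4 hairpins, and it was the 5p arm at Mir136 only.

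The same test was run on all 102 hairpins that reached 100 reads on both arms in all 6 libraries. After Benjamini-Hochberg adjustment over them p was 0.927 for Mir127 and Mir431, 0.956 for Mir434 and 0.879 for Mir136, and 0.00% of the 102 passed. With a smallest possible p of 0.1 none could pass. The genotypes separated for 9.80% of the 102 hairpins and for 0 of these 4. Ranked from the widest, the range across the wild-type libraries stood at 6 of 102 for Mir127, 12 for Mir431, 24 for Mir434 and 48 for Mir136. The range across the Adar2-/- libraries stood at 79 for Mir127, 48 for Mir431, 70 for Mir434 and 97 for Mir136. Over all hairpins the median range of the log2 ratio was 0.92 in wild-type and 0.80 in Adar2-/-, and 59.8% were wider in wild-type, as were all 4 here.

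**Figure D5:**
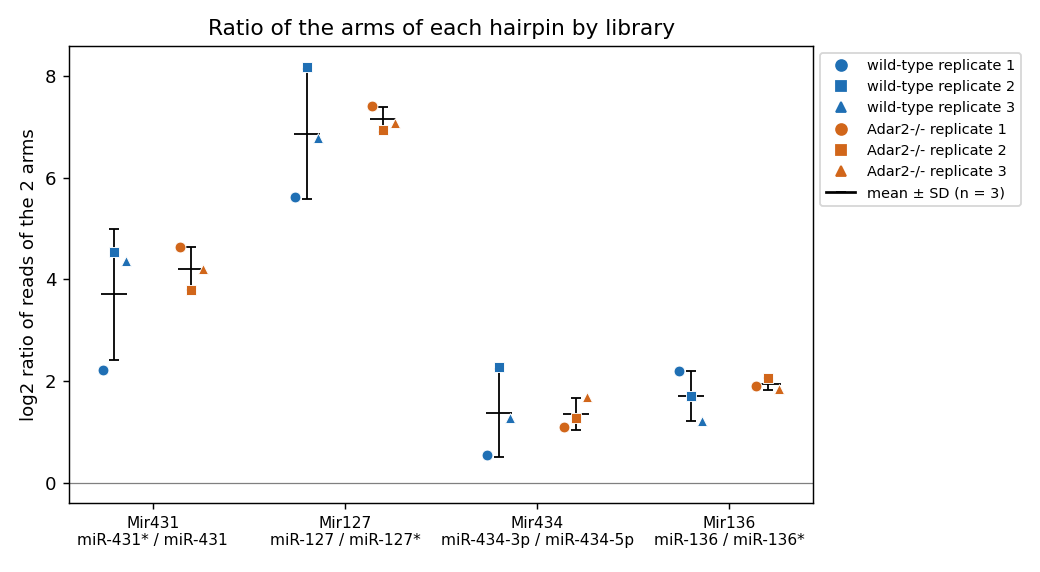
log2 ratio of the reads of both arms in each library for the 4 hairpins with both arms among the 9 miRNAs, with wild-type in blue, Adar2-/- in orange, a marker shape for each replicate number and black bars for the mean and SD of 3 libraries. Wild-type replicate 1 is lowest at Mir431, Mir127 and Mir434 and highest at Mir136.

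Added over both arms, Mir127 gave 32594, 92444 and 57665 RPM in wild-type and 54695, 63274 and 64976 RPM in Adar2-/- replicates 1 to 3. Mir136 ran the other way in wild-type, with 5364, 2920 and 3842 RPM, and gave 3032, 4194 and 4013 RPM in Adar2-/-. Mir434 gave 2740, 4970 and 4146 RPM in wild-type and 2516, 3218 and 4341 RPM in Adar2-/-, and Mir431 gave 124, 232 and 142 RPM and 185, 170 and 215 RPM. The order of the 4 hairpins by this sum changed between libraries for Mir434 and Mir136 only. None of the 4 sums differed between genotypes beyond the spread between mice (two-sided exact permutation tests over 4 sums, p from 0.5 to 1.0, smallest possible 0.1).

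The other imprinted miRNAs of the domain were compared by their counts. The lists used for them were incomplete. Names were matched exactly, so some tested arms of both groups that were unlisted, or listed under another name, were left out. Of 52 names listed for the cluster from miR-379 to miR-410, 47 were in the tables and 38 could be tested. None passed, 1 reached an unadjusted p under 0.05, and they had a median log2 fold change of 0.04 and a range from −0.72 to 1.09. Of 11 miRNAs listed around Meg3, 9 could be tested, 0 passed and 1 had an unadjusted p under 0.05. Their median was −0.11 and their range ran from −0.72 to 0.94. The fold changes of the 9 miRNAs opposite Rtl1 lay within both ranges.

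Summed RPM of the names listed for the cluster from miR-379 to miR-410 ran from 18228 to 26494 over the 6 libraries, a ratio of 1.45. That of the names listed around Meg3 ran from 1207 to 1666, a ratio of 1.38. The 9 miRNAs opposite Rtl1 summed to 40967 to 100726 RPM, a ratio of 2.46, of which miR-127 was by far the largest part.

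The profile of a miRNA across the libraries was compared with the mean profile of the 9, taken as log2 RPM minus its own mean. That mean profile stayed between 0.03 and 0.04 in the 3 wild-type libraries and was −0.29, 0.04 and 0.15 in Adar2-/- replicates 1 to 3. In wild-type the opposite deviations of single members cancelled in it. Among the 9 themselves miR-433 was closest to it, at a root mean square difference of 0.13 over 6 libraries, and miR-431 farthest, at 0.53. The 5 other miRNAs closest to it were miR-409-5p at 0.11, miR-770-5p, miR-744* and miR-29a* at 0.13, 0.13 and 0.14 in that order, and miR-770-3p at 0.14. Of these miR-409-5p belongs to the cluster from miR-379 to miR-410 and both miR-770 arms to the group around Meg3. Of the 399 tested, 38 were listed for that cluster and 9 around Meg3. miR-409-5p was closer to the mean profile than any of the 9 were. Adar2-/- replicate 1, where that profile was lowest, was the lowest Adar2-/- library for 68.9% of all tested.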

How the data were processed

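Small RNA libraries from 3 wild-type and 3 Adar2-/- whole brains were analysed. The authors removed adaptors with Cutadapt, mapped reads with NextGenMap to the mature sequences of miRBase, dropped reverse-strand hits and applied weights where a read matched several miRNAs equally well. The submitters' processing notes name the mm9 build. The authors deposited raw read counts without normalization, in 3 tables of 1 wild-type and 1 Adar2-/- library each, from which 12 blank lines were dropped. Columns were assigned by genotype and replicate number, and groups were taken from the sample titles.

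The quasi-likelihood test of edgeR 4.0.16 (R 4.3.3) was fitted to all 399 miRNAs that reached 100 reads in all 6 libraries, the minimum the study used, with total mapped reads as library size and without a replicate block. The study reported a larger set of miRNAs at its minimum. Its tables of changed miRNAs also set a limit by Student's t-test, which was not applied here. Standard errors and 95% intervals were derived from the quasi-likelihood F statistic. The fit was repeated with TMM factors, without the 5 most abundant miRNAs in the totals, in DESeq2 1.42.0, with a minimum of 10 reads or none, with a replicate block, and with libraries or replicate numbers left out in turn. The procedures were run on simulated data as a check of the code. The simulated arm counts held no variation between mice, so that run cannot show how the arm test behaves at the spread of these libraries. RefSeq sequences were placed on NCBIM37 (the assembly of mm9). Python 3.11.15 with scipy 1.17.1 and pandas 2.3.3 gave the remaining values, and matplotlib 3.10.9 the figures.

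The 9 miRNAs and all lists were chosen with earlier results of these data known. Named are the 9, rank neighbours and the 5 miRNAs of most similar profile. Markers and imprinted lists are given by counts and sums. Nothing in the sources used here says whether the mice shared litters. Editing levels and arrays were not analysed here.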

Additional observations from a re-analysis of the deposited data

How the results depend on the processing

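No miRNA of the 9 was called in any of the 16 alternatives, and the smallest adjusted p of any of them was 0.427 (miR-431 without replicate 1 of both genotypes). The sign of the fold change held in 125 of 144 alternative fits, which reuse the same 6 libraries and are not independent. Of the 19 fits with the opposite sign, 16 left libraries out. miR-127 turned to −0.053 with TMM factors, −0.067 with the 5 most abundant left out of the totals and −0.10 in DESeq2, which called 1 miRNA over all tested. With a replicate block 0 of the 9 and 0 of the 399 passed and the median of the 9 was −0.15, with and without TMM factors. Deviations of same-numbered libraries from their group means had correlations from −0.076 to −0.0010 across the 399 miRNAs. Those of differently numbered libraries ran from −0.026 to 0.073. As both are near 0, these values cannot show whether the replicate numbers paired the mice.

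Leaving out a library or a replicate number moved the fold changes from −0.74 to 0.49 for miR-431, 0.01 to 0.69 for miR-431*, −0.16 to 0.021 for miR-433, −0.30 to 0.44 for miR-127, −0.56 to 0.24 for miR-127*, −0.35 to −0.06 for miR-434-5p, −0.54 to 0.14 for miR-434-3p, −0.36 to 0.41 for miR-136 and −0.49 to −0.09 for miR-136*. The median of the 9 ran from −0.35 to −0.03. The count of calls over all tested ran from 0 to 18, the latter without replicate 1. The log2 arm difference ran from −0.46 to 1.12 at Mir431, −0.47 to 1.05 at Mir127, −0.43 to 0.48 at Mir434 and −0.0064 to 0.50 at Mir136. The difference in summed RPM ran from −14923 without wild-type replicate 1 to 14957 without wild-type replicate 2. The count of the 9 that kept 1 direction and reached 1.3-fold ran from 0 to 4, and was 2 without replicate 1 (44.1% of all tested) and 4 without replicate 2 (32.8%), when only 2 comparisons have to match. The cause was not tested. The lowest count behind any of these values was 134 reads (miR-431), and 3 mice per genotype set the width of the intervals.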
